A study of Homo sapiens with 8 samples.

Results

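HTRA1, HTRA2, HTRA3 and HTRA4 encode a family of serine proteases, and SHC1, SHC2, SHC3 and SHC4 encode a family of signaling adaptors. These 8 genes, of 57500 genes in the count table, were described in HEK293T cells treated with DZNep. HTRA3 and SHC2 were taken because they had the lowest log2 fold changes of the well-expressed genes between DZNep-treated and Control cells, and the other 6 genes were added as their paralogs by family name. The values of HTRA3 and SHC2 in this comparison are therefore a description with no test. HEK293T is a human embryonic kidney line that expresses the large T antigen of SV40. DZNep, short for 3-deazaneplanocin A, resembles adenosine and blocks the hydrolase AHCY, which clears the methylation by-product S-adenosylhomocysteine. RNA was sequenced from 4 libraries of cells given 100 µM DZNep and 4 libraries of cells given vehicle (Control), each collected after 48 h. All 8 libraries came from this 1 line, with no genetic change between the groups, and replicates are numbered 1 to 4 in each. The study calls them biological replicates, and the sources used here do not say how far their cultures were handled apart, so the p-values measure the spread between these libraries.

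HTRA proteases join a trypsin-like protease domain to a PDZ domain and act as trimers that degrade misfolded or matrix proteins. HTRA1, HTRA3 and HTRA4 are secreted, and HTRA1 and HTRA3 are known to cleave matrix proteins and to dampen TGF-beta signaling. HTRA2 lies between the mitochondrial membranes, where it takes part in quality control, and once released into the cytosol it binds and cleaves inhibitors of apoptosis proteins (IAPs). SHC proteins carry a PTB domain and an SH2 domain that bind phosphorylated receptors, and between these a region whose phosphorylated tyrosines recruit GRB2 and thereby SOS and RAS. SHC1 is found in most tissues, SHC2 and SHC3 are best known from neurons, and SHC4 is known from brain, muscle and melanoma.

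Library totals ranged from 25043058 to 44902779 counts, and Control replicate 1 was the shallowest. Of 7 markers known from HEK293T cells, VIM had 17104 to 33389 counts per library, NEFM 2874 to 8379, NEFL 1876 to 6055 and KRT18 1711 to 5154. PAX2 (250 to 358) and LHX1 (201 to 806) were lower, and mean normalized counts went from 361 to 2001 with DZNep for KRT8 and from 507 to 192 for LHX1. Of the 8 markers of other cell types examined, ALB (hepatocytes) had at most 8 counts in a library and PTPRC (leukocytes) 41 to 90. CD3E (T cells) had 0 counts in every Control library and 9 to 36 in the DZNep libraries, and CDH5 (endothelium) had 0 to 2 and 13 to 21. PECAM1 (endothelium) had 57 to 203 counts, and the matrix transcripts COL1A1, COL3A1 and DCN had 2510 to 5163, 962 to 2297 and 87 to 255. The 5 leukocyte, endothelial and hepatocyte markers summed to 185 to 256 normalized counts in the Control and 148 to 364 in the DZNep libraries. With COL1A1, COL3A1 and DCN, which were listed as fibroblast markers, all 8 summed to 3386 to 6541 in the Control and 3428 to 7215 in the DZNep libraries. Mitochondrial transcripts took 7.04% to 13.7% of the counts in replicates 1 and 4 and 3.02% to 4.44% in replicates 2 and 3. The part of these differences in the results was not tested.

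The regions upstream of HTRA3 and SHC2 are shown because the members differed in base composition there. Those of HTRA1 and SHC4, the paralogs that passed both thresholds given below, are shown as well. SHC3 had too few counts for the main test, and its window is described but not shown. Each sequence is the 250 bases before the RefSeq start site on the gene's strand (GRCh38.p14), in lower case with CG dinucleotides in capitals. The windows are chr4:8269504-8269753 on the plus strand for HTRA3, chr19:461034-461283 on the minus strand for SHC2, chr10:122461303-122461552 on the plus strand for HTRA1, and chr15:48963920-48964169 on the minus strand for SHC4. The RefSeq start site used for HTRA1 lies downstream of the start of the gene in the GENCODE annotation, and for the other 3 genes the start sites are the same.
HTRA3: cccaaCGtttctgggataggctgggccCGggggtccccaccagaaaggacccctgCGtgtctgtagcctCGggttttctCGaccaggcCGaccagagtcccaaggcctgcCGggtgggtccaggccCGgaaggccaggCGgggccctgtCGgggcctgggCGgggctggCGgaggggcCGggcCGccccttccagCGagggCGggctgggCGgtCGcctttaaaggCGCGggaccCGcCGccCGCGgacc
SHC2: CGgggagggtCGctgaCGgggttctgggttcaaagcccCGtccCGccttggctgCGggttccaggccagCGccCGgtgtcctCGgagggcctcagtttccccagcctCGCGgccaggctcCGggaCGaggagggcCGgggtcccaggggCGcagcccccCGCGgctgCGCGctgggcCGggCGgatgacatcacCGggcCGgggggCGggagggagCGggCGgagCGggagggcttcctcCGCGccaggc
HTRA1: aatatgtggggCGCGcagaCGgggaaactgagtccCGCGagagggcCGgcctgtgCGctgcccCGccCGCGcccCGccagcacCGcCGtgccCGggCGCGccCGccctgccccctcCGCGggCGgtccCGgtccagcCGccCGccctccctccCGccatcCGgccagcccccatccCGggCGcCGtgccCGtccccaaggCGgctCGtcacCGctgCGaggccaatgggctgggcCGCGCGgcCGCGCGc
SHC4: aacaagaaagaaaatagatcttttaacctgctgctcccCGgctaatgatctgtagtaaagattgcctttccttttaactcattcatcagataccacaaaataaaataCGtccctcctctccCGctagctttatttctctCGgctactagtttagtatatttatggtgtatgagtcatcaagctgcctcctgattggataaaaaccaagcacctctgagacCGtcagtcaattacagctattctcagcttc

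The window of HTRA3 held 24 CG dinucleotides, more than 76.3% of the 35114 promoter windows of the same length. SHC2 had 29, more than 85.9% of the windows, and HTRA1 had 39, more than 97.3%. SHC4, which was higher with DZNep, had 5 CG dinucleotides. SHC3, which had lower values with DZNep, had 4, and the 2 windows of HTRA2, which was not called, had 18 and 26. The 2 windows of SHC1, which was higher by the adjusted p-value alone, had 16 and 5. SHC3 had few counts and did not pass the expression filter. A link between the CG count and the direction of change was not tested. The G and C content was 74.8% for HTRA3, 78.0% for SHC2, 81.2% for HTRA1, 40.0% for SHC4 and 38.0% for SHC3. Between these lay the 2 windows of HTRA2, at 62.4% and 70.0%, and the 2 windows of SHC1, at 55.2% and 61.6%. The GC box GGGCGG, read on both strands, matched 5 times in the window of HTRA3, 5 times in that of HTRA1, 3 times in that of SHC2 and 0 times in that of SHC4, and 42.6% of all windows held at least 1 match. The letters CCAAT, also on both strands, matched once each in the windows of HTRA1 and SHC4, against 32.0% of windows with a match. TATAAA matched in none of these 4 windows, against 10.7% of windows with a match. A match is a description of these letters and not evidence of a bound factor. Of the 8 genes, 7 matched the promoter table. Both windows of HTRA2 and 1 of the 2 windows of SHC1 overlapped annotated exons, and no window of these genes is shown.

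HTRA3 (ENSG00000170801, chromosome 4 of GRCh38 from 8269754 to 8307098) was nearly lost from the DZNep libraries. Its normalized counts, which are counts divided by the size factor of the library, were 484, 267, 408 and 333 in Control replicates 1 to 4. In DZNep replicates 1 to 4 they were 12.7, 4.83, 3.45 and 19.1. The groups lay far apart, and the lowest Control library was 14.0 times the highest DZNep library. The means were 373 ± 93.8 and 10.0 ± 7.30 (SD, n = 4 each), a ratio of 37.2, and the fitted log2 fold change was -5.28 (SE 0.45). The DZNep values rest on 14, 6, 4 and 17 counts. Within the treated group replicates 1 and 4 were higher than replicates 2 and 3, as was the share of mitochondrial transcripts. The choice left outside UNC5A, SLC22A31 and GNG4, the next lowest genes, with log2 fold changes of -4.99, -4.78 and -4.77. Counting genes of any level, 8 tested genes were lower than HTRA3, and each of these had an average log2 CPM (counts scaled to library size) under 1. In bulk RNA, fewer cells with a transcript and less of it per cell cannot be told apart.

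HTRA1 (ENSG00000166033, chromosome 10 of GRCh38 from 122458551 to 122514907), the other well-expressed secreted member, fell as well. Its normalized counts were 951, 577, 949.5 and 1018 in the Control replicates and 149, 39.5, 99.3 and 95.6 in the DZNep replicates. No DZNep library came near a Control library, and the lowest Control value was 3.88 times the highest DZNep value. A full separation of the groups in this direction, with DZNep lower, was found for 19.4% of all genes tested. From means of 874 ± 201 and 95.8 ± 44.7 (SD, n = 4 each), HTRA1 had a log2 fold change of -3.22 (SE 0.36, adjusted p = 0.000115; quasi-likelihood test of edgeR, Benjamini-Hochberg over 19171 genes). Genes that passed 0.05 on the adjusted p-value and changed by more than 1 on the log2 scale were called, and 13.5% of the genes tested were called lower and 10.6% higher. Replicate 2 was the lowest library of HTRA1 in both groups.

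HTRA2 (ENSG00000115317, chromosome 2 of GRCh38 from 74529596 to 74533350), the mitochondrial member, did not pass the test. Its normalized counts were 2275, 1567, 1789 and 2354 in the Control replicates and 2084, 1842, 1646 and 2595 in the DZNep replicates. The ranges overlapped almost entirely, and in both groups replicates 1 and 4 were higher than replicates 2 and 3. Those are also the libraries with the larger mitochondrial share, and the part of that share in HTRA2 was not tested. The means were 1996 ± 380.0 and 2042 ± 410.1 (SD, n = 4 each). HTRA2 had a log2 fold change of 0.00 (SE 0.19, edgeR's adjusted p = 0.988). Exons of LOXL3 on the opposite strand overlap 27.5% of the annotated exon bases of HTRA2, and the strand setting of the counting is not given in the sources used here. LOXL3 itself averaged 282 normalized counts without and 438 with DZNep. Exons of AUP1, also on the opposite strand, overlap 4.85% of the HTRA2 exon bases. AUP1 averaged 4163 normalized counts without and 3884 with DZNep, and the part of these overlaps in HTRA2 was not tested.

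HTRA4 (ENSG00000169495, chromosome 8 of GRCh38 from 38974228 to 38988663), a protease known mainly from placenta, was at the limit of detection. It had 0, 1, 0 and 0 counts in the Control replicates and 0, 14, 1 and 0 in the DZNep replicates. All but 1 of these counts came from DZNep libraries, and 14 of them from replicate 2. HTRA4 did not pass the expression filter, and with no filter the adjusted p was 0.145 in edgeR and 0.264 in DESeq2. In the shallowest library, a count of 0 still allows a share of 1.2e-05% of all counts, by counting error alone.

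**Figure D1:**
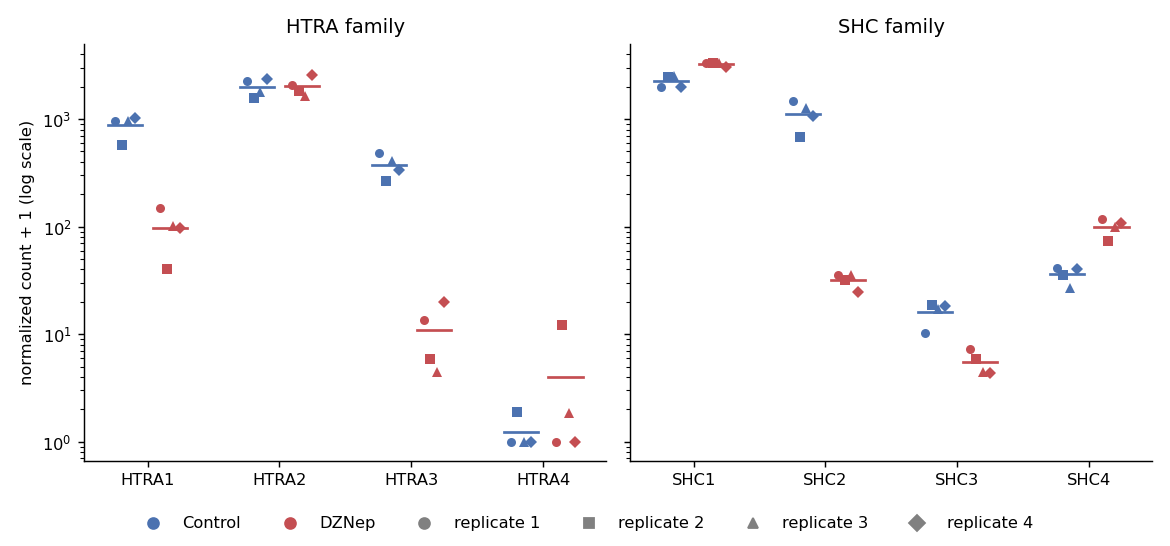
Normalized count plus 1 (log scale) of each HTRA and SHC gene in every library, with Control in blue, DZNep in red, a marker shape for each replicate and a line at the group mean (n = 4). HTRA3, HTRA1 and SHC2 show wide gaps between the groups, HTRA2 overlaps, and SHC1 and SHC4 lie higher with DZNep. HTRA4 is at or near 0 except in DZNep replicate 2, at 11.3 normalized counts.

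SHC2 (ENSG00000129946, chromosome 19 of GRCh38 from 416589 to 461033) was the second gene chosen for its decrease. Its normalized counts were 1479.9, 687, 1257 and 1074 in the Control replicates and 34.5, 30.6, 34.5 and 23.6 in the DZNep replicates. The DZNep libraries were close to each other, and the lowest Control library was 19.9 times the highest DZNep library. The means were 1124 ± 336 and 30.8 ± 5.13 (SD, n = 4 each), a ratio of 36.5, and the fitted log2 fold change was -5.20 (SE 0.28). The coefficient of variation among DZNep libraries was 16.7% for SHC2 and 72.8% for HTRA3, which had fewer counts. Control replicate 2 held the lowest Control value of SHC2, as it did for HTRA1 and HTRA3.

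SHC1 (ENSG00000160691, chromosome 1 of GRCh38 from 154962298 to 154974395), the widely expressed adaptor, was higher with DZNep. Its normalized counts were 1998, 2472, 2511 and 2004 in the Control replicates and 3318, 3317, 3328 and 3049 in the DZNep replicates. Every DZNep library lay above every Control library, as for 19.5% of all genes tested, and the lowest DZNep value was 1.21 times the highest Control value. The means were 2246 ± 284 and 3253 ± 136 (SD, n = 4 each). The log2 fold change of 0.51 (SE 0.14) passed the threshold on the adjusted p-value (0.0137, edgeR) and not that on the fold change, and 19.1% of the genes tested were higher by the adjusted p-value alone. With no filter on low counts the adjusted p-value was 0.0608. Exons of PYGO2 on the same strand overlap 7.72% of the exon bases of SHC1. PYGO2 itself averaged 3611 normalized counts without and 4917 with DZNep, and the part of this overlap in SHC1 was not tested.

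SHC4 (ENSG00000185634, chromosome 15 of GRCh38 from 48823741 to 48963919) rose from a low level. Its normalized counts were 40.1, 34.8, 26.0 and 39.8 in the Control replicates and 117, 73.3, 97.6 and 107 in the DZNep replicates. Every DZNep library lay above every Control library, as for 19.5% of the genes tested, and the lowest DZNep library was 1.83 times the highest Control library. From means of 35.2 ± 6.58 and 98.7 ± 18.7 (SD, n = 4 each), SHC4 had a log2 fold change of 1.47 (SE 0.25, edgeR's adjusted p = 0.00117). SHC4 was thus called higher, as were 10.6% of all genes tested.

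SHC3 (ENSG00000148082, chromosome 9 of GRCh38 from 89005771 to 89178818) had few counts in either group, namely 6, 20, 18 and 16 in the Control and 7, 6, 4 and 3 in the DZNep replicates. After division by the size factors these were 9.25, 17.9, 16.1 and 17.2 in the Control and 6.35, 4.83, 3.45 and 3.37 in the DZNep replicates. Every DZNep value lay below every Control value, as for 19.4% of the genes tested. SHC3 did not pass the expression filter, so it is outside the main test. With no filter, edgeR gave a log2 fold change of -1.74 (SE 0.54, adjusted p = 0.0238) and DESeq2 gave -1.75 (adjusted p = 0.00835).

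Of the 4 paralogs that passed the expression filter, 1 was called lower (HTRA1) and 1 higher (SHC4), against 13.5% and 10.6% of all genes tested. In each family the gene chosen for its decrease had a lower log2 fold change than every paralog tested, which the choice itself fixes. Within pairs of libraries with the same replicate number, the log2 ratios (of normalized count plus 1) of HTRA3 were -5.15, -5.52, -6.52 and -4.05 for replicates 1 to 4. The log2 ratios of SHC2 were -5.38, -4.44, -5.14 and -5.45. HTRA1 was lower in every pair, with ratios between -3.84 and -2.67, and SHC4 was higher in every pair, with ratios between 1.05 and 1.87. SHC1 was higher in every pair, between 0.41 and 0.73, and HTRA2 lay between -0.13 and 0.23.

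**Figure D2:**
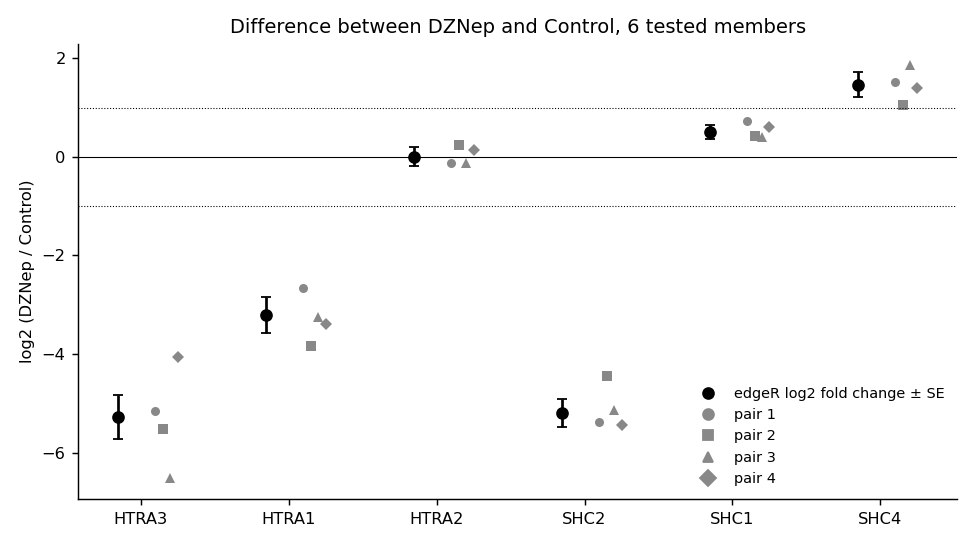
Log2 ratio of DZNep to Control for the 6 genes that passed the expression filter, with the fitted log2 fold change and its standard error in black, the log2 ratio of each replicate pair in grey, and dotted lines at a log2 fold change of 1 and -1. HTRA3, SHC2 and HTRA1 are below -2.6 in all 4 pairs, HTRA2 is on both sides of 0, and SHC1 and SHC4 are above 0 in all 4 pairs.

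Levels of different genes were compared as normalized counts per kilobase of merged exon. In the Control libraries HTRA2 was highest, at 586 ± 112, followed by SHC1 (517 ± 65.4), HTRA1 (388 ± 89.2), SHC2 (270.2 ± 80.7) and HTRA3 (112 ± 28.3; SD, n = 4 each). The ranges of HTRA2 and SHC1 overlapped, and HTRA2 was the higher in 2 of 4 libraries, so their order did not hold beyond the spread. The ranges of HTRA1 and SHC2 overlapped too, but HTRA1 was the higher in 4 of 4 libraries. The lowest SHC1 value (460) was just above the highest HTRA1 value (453). HTRA3 lay below SHC2 in every library, with a highest value of 146 against a lowest of 165. SHC4 (5.38 ± 1.01), SHC3 (1.51 ± 0.40) and HTRA4 (0.11 ± 0.22) were far lower. With DZNep the order was SHC1 (749 ± 31.3), HTRA2 (599.7 ± 120), HTRA1 (42.6 ± 19.9), SHC4 (15.1 ± 2.86), SHC2 (7.40 ± 1.23), HTRA3 (3.02 ± 2.20), HTRA4 (1.49 ± 2.71) and SHC3 (0.45 ± 0.14). With DZNep the ranges of SHC1 and HTRA2 overlapped, and SHC1 was the higher in 3 of 4 libraries. HTRA1 was above SHC4 in 4 of 4 libraries, although its lowest value (17.5) was under the highest SHC4 value (17.9). SHC4 lay above SHC2 in every library, with a lowest value of 11.2 against a highest of 8.30, whereas the lowest SHC2 value (5.68) was under the highest HTRA3 value (5.76) and SHC2 was the higher in 3 of 4 libraries. The range of HTRA4 overlapped those of HTRA3 and SHC3. Among all genes tested, HTRA3 moved from above 51.1% of genes in the Control to above 4.30% with DZNep, SHC2 from above 69.3% to above 12.2%, and HTRA1 from above 76.5% to above 36.3%.

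The makeup of both families differed between the groups. The summed HTRA level per kilobase was 1087 ± 209 in the Control and 647 ± 127 with DZNep (SD, n = 4 each). HTRA2, the mitochondrial protease, made up 54.1% ± 3.66 of that sum in the Control and 92.7% ± 2.65 with DZNep, while HTRA1 went from 35.5% ± 3.12 to 6.60% ± 2.98 and HTRA3 from 10.4% ± 1.70 to 0.43% ± 0.25. The summed SHC level was 794 ± 74.1 in the Control and 772 ± 31.9 with DZNep, so the difference was smaller than the spread of the Control libraries. SHC1 made up 65.4% ± 8.63 of it in the Control and 97.0% ± 0.40 with DZNep, and SHC2 33.8% ± 8.66 and 0.96% ± 0.13. SHC4 made up 0.69% ± 0.17 and 1.96% ± 0.39. These shares include the genes chosen for their decrease and are given without a test.

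**Figure D3:**
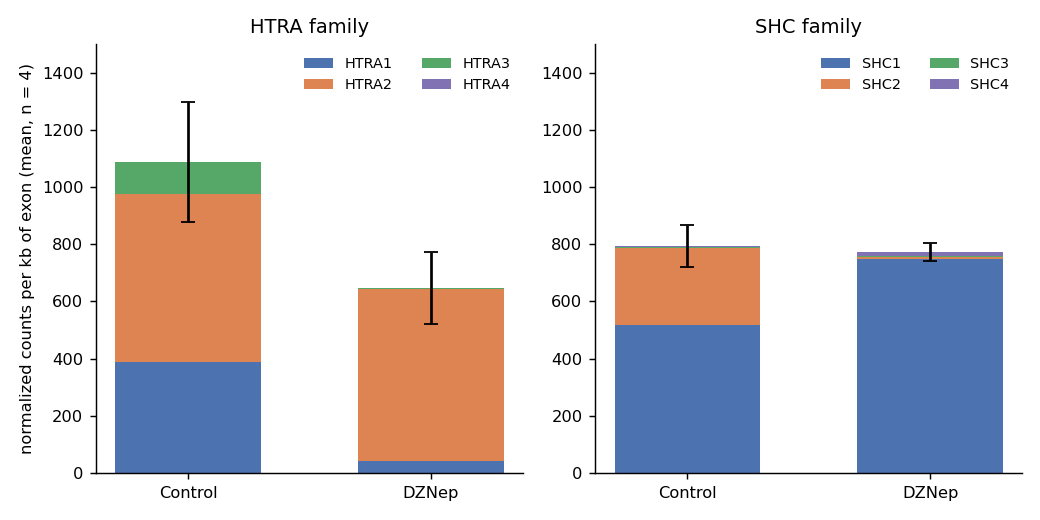
Mean normalized counts per kilobase of exon, stacked by gene, for each family in Control and DZNep libraries (n = 4 each), with the SD of the family sum as a bar. The HTRA sum goes from 1087 to 647, nearly all of it HTRA2 with DZNep, while the SHC sum is 794 and 772 and is nearly all SHC1 with DZNep.

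The genes around HTRA3 and SHC2 did not all move one way. Of the 10 nearest protein-coding genes tested, 5 on each side of HTRA3 and 28.0 to 1202 kb away, 2 were called lower and 0 higher by edgeR, against 13.5% and 10.6% of all genes, with 1 gene higher at an unadjusted p under 0.05 and 0 called higher by DESeq2 or limma. The closest, SH3TC1, had 0.37 on the log2 scale (adjusted p = 0.601), and ACOX3, a peroxisomal acyl-CoA oxidase on the other side, had -0.27 (adjusted p = 0.330, both from edgeR). SORCS2, a sorting receptor 527 kb away, fell, by edgeR, with a log2 change of -2.74 (adjusted p = 0.00408). The median log2 fold change of the 10 genes was 0.03, against -0.03 for all genes tested.

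Around SHC2, which lies near the end of chromosome 19, 7 protein-coding genes were taken, of which only 2 lie between SHC2 and the chromosome end. Of these 7 genes, 2 were called higher and 1 lower by edgeR, against 10.6% and 13.5% of all genes tested. Their median log2 fold change was -0.003, against -0.03 for all genes tested. Distances were taken to the nearest edge of each gene, without regard to its strand. ODF3L2, an outer dense fiber relative whose nearest edge lies 2.31 kb beyond the SHC2 start, was called lower. It went from 76.9 ± 42.5 to 8.94 ± 5.36 normalized counts (SD over 4 libraries; log2 fold change -3.14, SE 0.53, edgeR's adjusted p = 0.00104). On the other side, C2CD4C, 7.44 kb away, was called higher, from 139.7 ± 23.4 to 439 ± 54.0 (log2 fold change 1.63, SE 0.18, edgeR's adjusted p = 0.000105). MADCAM1, an adhesion molecule 28.1 kb away on the side of ODF3L2, was also called higher, with a log2 fold change of 1.55 (SE 0.27, edgeR's adjusted p = 0.00141). TPGS1 had -0.87 and passed the threshold on the adjusted p-value alone (0.0365), and CDC34 and BSG, a ubiquitin-conjugating enzyme and a membrane glycoprotein, both had 0.00. MIER2, the farther gene on the C2CD4C side, had -0.45 (edgeR's adjusted p = 0.0847). The genes closest to SHC2 on its 2 sides thus had opposite signs, as did ODF3L2 and MADCAM1 on the same side.

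**Figure D4:**
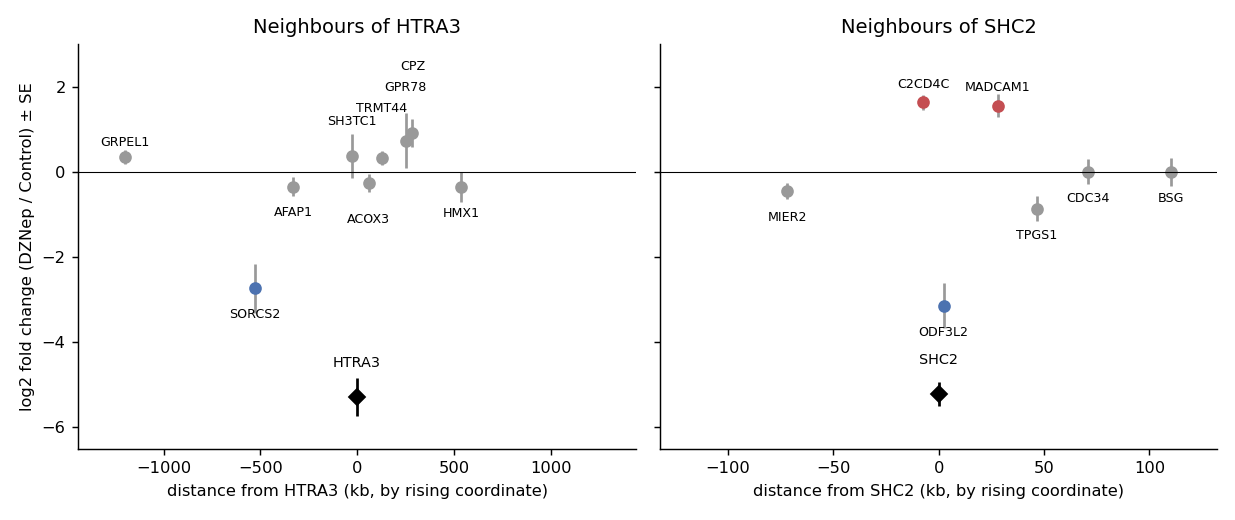
Log2 fold change (DZNep over Control, with its standard error) of the tested protein-coding genes around HTRA3 and SHC2 against their distance from the gene, in red where called higher, blue where called lower and grey where not called, with black diamonds for HTRA3 and SHC2 at distance 0. Of the 10 genes around HTRA3, 1 is not shown. SORCS2 is called lower near HTRA3, and ODF3L2, C2CD4C and MADCAM1 are the called genes near SHC2.

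The genes whose pattern over the 8 libraries was most like that of HTRA3, by Pearson's r on log2(normalized count + 1) among 13557 genes, included FARSB (0.996), DPH5, CPSF3 and DEXI (0.993 for the last). For SHC2 they were CEP41 (0.999), PTGR2, ENSG00000259959, FAM20C and STXBP3 (0.997 for the last). HTRA1 ranked 486 by likeness to HTRA3 (r = 0.960) and 634 by likeness to SHC2 (r = 0.959), and HTRA3 and SHC2 had r = 0.962 with each other. HTRA2 had r = 0.13 with HTRA3 and -0.04 with SHC2, and SHC1 had -0.92 with each. The 8 libraries fall into the groups that the genes were chosen on, so these values mostly describe the step between groups and are given with no test.

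The substrates and partners of the HTRA proteases and SHC adaptors were followed in 6 gene lists. They are described by their counts, with the median log2 fold change of -0.03 over all genes tested as the background. In the TGF-beta and BMP pathway, which HTRA1 and HTRA3 are known to dampen, 48 of 50 genes were tested, 3 were called higher and 5 lower, against 10.6% and 13.5% of all genes, and the median was 0.01. The calls were among ligands and secreted inhibitors. BMP5, a bone morphogenetic protein, rose from 6.22 to 112 normalized counts on average (log2 fold change 4.15, SE 0.40), and TGFB3 rose from 127 to 377 (1.54, SE 0.19). BMP7 fell from 3107 to 743 (-2.09, SE 0.14), BMP6 from 409.8 to 97.7 (-2.10, SE 0.17) and INHBB, an activin and inhibin subunit, from 211 to 67.8 (-1.66, SE 0.26). In these 5 ligands, named for the size of their change, the DZNep and Control libraries did not overlap. Of all genes tested, 19.5% had every DZNep library above every Control library, and 19.4% had every one below. TGFB2 was called higher (log2 fold change 1.33, SE 0.43) with overlapping groups, and it was higher in 4 of 4 pairs of same-numbered libraries (adjusted p = 0.000153 in edgeR with the replicate block). Without the block it lost the call without Control replicate 1 or 4 (edgeR's adjusted p = 0.0803 and 0.0549) or DZNep replicate 1, 2 or 3 (0.0683, 0.0619 and 0.0938). Of the 11 receptors and 10 SMADs and SMAD repressors tested, 0 were called in either direction by edgeR, DESeq2 or limma. At an unadjusted p under 0.05 in edgeR, 2 receptors were higher and 0 lower, and 3 SMADs or repressors were higher and 2 lower.

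Among 30 matrix glycoproteins and proteoglycans, which include known substrates of secreted HTRA proteases, 3 were called higher and 6 lower, against 10.6% and 13.5% of all genes, and the median log2 fold change was -0.10. The small leucine-rich proteoglycans FMOD and LUM rose, from 4.64 to 71.6 and from 100.2 to 433 normalized counts on average (log2 fold changes 3.99 and 2.08, SE 0.44 and 0.21). ELN, which encodes elastin, rose from 17.5 to 82.9 (2.28, SE 0.46). The basement membrane genes AGRN, HSPG2 and LAMA5 fell, from 2831 to 903, from 525 to 168 and from 1852 to 697 (log2 fold changes -1.68, -1.67 and -1.44, SE 0.21, 0.42 and 0.30). For each of these 6 genes, named for the size of their change, the groups did not overlap. Of all genes tested, every DZNep library lay above every Control library in 19.5% and below in 19.4%.

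Among 29 tested mitochondrial proteases and genes of the IAP axis, the setting of HTRA2, 1 was called higher and 3 lower, against 10.6% and 13.5% of all genes, and the median was -0.06. The inhibitor of apoptosis gene BIRC3 rose from 36.6 to 148 normalized counts on average (log2 fold change 1.99, SE 0.21). OMA1, a protease of the inner membrane, fell from 898 to 343 (-1.42, SE 0.16). AFG3L2, a subunit of the m-AAA protease, fell from 2792 to 1305 (-1.12, SE 0.24). AFG3L2 lost the call without Control replicate 2, at -0.92.

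Of 30 receptor tyrosine kinases tested, the receptors upstream of SHC adaptors, 3 were called higher, 2 lower and 25 not called, against 10.6% higher and 13.5% lower of all genes, and the median log2 fold change was -0.08. EGFR, the epidermal growth factor receptor and a classical partner of SHC1, fell from 1004 to 132 normalized counts on average (log2 fold change -2.95, SE 0.28, edgeR's adjusted p = 5.07e-05). Its Control libraries held 859, 1365, 1225 and 566 and its DZNep libraries 139.7, 114, 162 and 114. Every DZNep library thus lay below every Control library, as for 19.4% of the genes tested. RET, the receptor of the GDNF family ligands, fell from 167 to 67.9 (-1.33, SE 0.29). ERBB3, a relative of EGFR with little kinase activity, rose from 179 to 377 (1.05, SE 0.18), and TEK, the angiopoietin receptor, rose from 5.43 normalized counts by a log2 fold change of 1.45 (SE 0.40). Only 1 receptor was called higher without Control replicate 1 or without DZNep replicate 3. ERBB3 lost the call without Control replicate 1 or 3 or DZNep replicate 3 (log2 fold changes 0.98, 0.96 and 0.95). TEK did not pass the expression filter without DZNep replicate 1 or 2. In the fit with the replicate block, KDR was called higher as well (1.76, adjusted p = 0.00448, against 1.48 and 0.105 without it, edgeR).

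Among the 30 other phosphotyrosine adaptors, 4 were called higher and 5 lower, near the 10.6% and 13.5% of all genes, and the median was -0.13. GRB7, an SH2 adaptor of ERBB receptors, rose from 3.54 to 37.0 normalized counts on average (log2 fold change 3.35, SE 0.52). The docking proteins DOK5 and DOK4 rose from 20.4 to 51.5 and from 341 to 716 (1.30 and 1.04, SE 0.28 and 0.13), while DOK6 fell from 445 to 157 (-1.52, SE 0.19). IRS2, an insulin receptor substrate, fell from 526 to 185 (-1.54, SE 0.21). IRS4, the insulin receptor substrate first described in HEK293 cells, was called lower at -2.55 (SE 0.65), and its Control libraries spread from 2335 to 22089 and overlapped the DZNep libraries. Within same-numbered pairs IRS4 was higher with DZNep in 0 of 4 (adjusted p = 2.66e-06 in edgeR with the replicate block). Replicates 2 and 3 were the higher libraries of IRS4 in both groups. Without Control replicate 1 the list had 2 genes higher, and DOK4 lost the call at 0.98. GAB3, whose log2 fold change of -0.98 (adjusted p = 0.0265) just missed the threshold on the fold, passed it with the replicate block (adjusted p = 0.0144, edgeR).

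Of the 35 genes tested of the RAS-MAPK cascade, onto which GRB2 and SOS pass the SHC signal, 2 were called higher and 1 lower, against 10.6% and 13.5% of all genes, and the median log2 fold change was 0.31. By the adjusted p-value alone 8 were higher and 1 lower, against 19.1% and 21.8% of all genes tested. MAP2K2, the kinase MEK2, fell from 9830 to 3603 normalized counts on average (-1.48, SE 0.22). SPRED2, an inhibitor of RAS signaling, rose from 722 to 1630 (1.15, SE 0.12), and ETV1, an ETS transcription factor, rose from 82.7 to 326 (1.94, SE 0.33). Without Control replicate 2, or without DZNep replicate 4, 4 genes were called higher. EGR1, an immediate early gene of this pathway, was called higher with the replicate block (1.11, adjusted p = 0.00107, against 0.86 and 0.319 without it, edgeR).

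**Figure D5:**
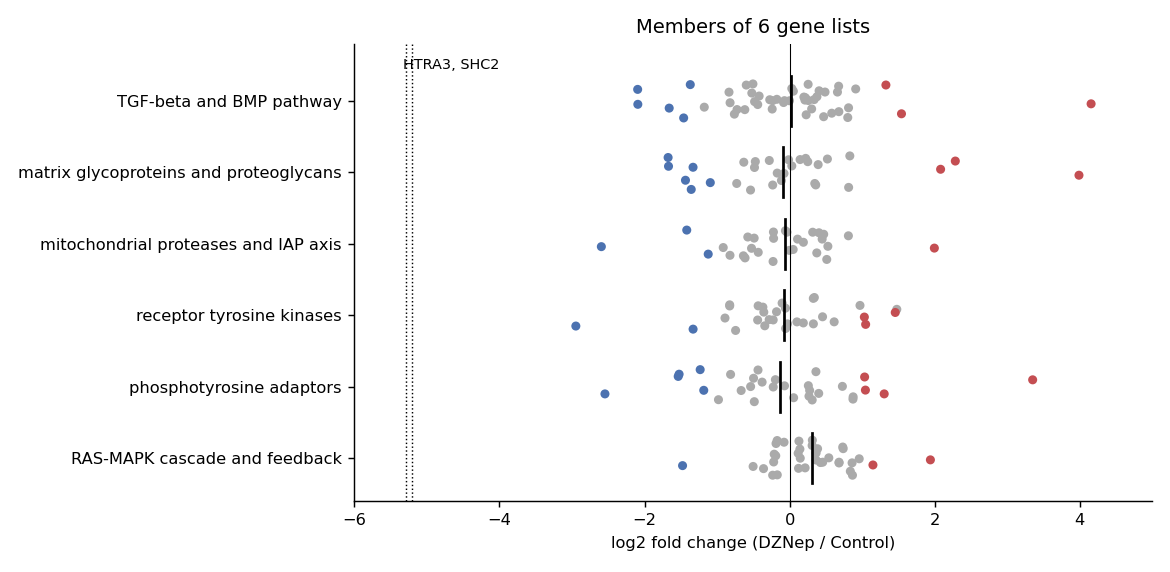
Log2 fold change (DZNep over Control) of each tested gene in the 6 lists, with colors for genes called higher, lower or not called and a line at the median of each list. The medians lie between -0.13 and 0.31, against -0.03 over all genes tested, and each list holds genes called in both directions.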

How the data were processed

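RNA from 4 Control and 4 DZNep libraries was analysed. The authors trimmed paired reads (Trimmomatic 0.36), aligned them to GRCh38 (STAR 2.5.2b) and deposited counts of unique exonic reads per gene (featureCounts, Subread 1.5.2). The strand setting and annotation release are not given in the sources used here. The authors also deposited normalized counts (a signal per gene), which equal the counts divided by 1 size factor per library, for the 19118 genes with more than 80 counts in sum. Library totals ranged from 25043058 to 44902779. Intervals and floors cover counting error only, and genes with few counts (HTRA4, SHC3, and HTRA3 with DZNep) are the least precise.

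The counts were tested with edgeR 4.0.16 (R 4.3.3; TMM factors, filterByExpr, quasi-likelihood test, Benjamini-Hochberg over 19171 genes). Calls needed an adjusted p-value below 0.05 together with a log2 fold change beyond 1 or -1, as in the study, which used DESeq2. The members and lists were chosen with earlier results of these data known. Named were the 8 members, the next 3 genes below the choice, up to 3 called genes per list and direction, the 5 genes most like HTRA3 and SHC2, and up to 5 tested protein-coding neighbours per side. Some genes that these rules name are not reported here. KDR, GAB3 and EGR1 were named after their values were seen. Identifiers were matched to GENCODE release 44 (56410 of 57500). Promoter windows came from RefSeq. Protein sequences were not analysed here.

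Deviations of same-numbered libraries from their group means had correlations of 0.14, 0.49, 0.43 and 0.67 for replicates 1 to 4. Libraries with different numbers were not compared, so pairing by number was not established. A fit with the replicate block was run as an alternative. Other alternatives were median-ratio factors, library sizes alone, no filter, at least 10 counts in every library, DESeq2 1.42.0, limma 3.58.1 on log2(normalized count + 1), no fold change threshold, other pseudocounts, and leaving out each library. The scripts were tested on simulated data.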

Additional observations from a re-analysis of the deposited data

Results flagged for a closer look

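Of 20 groups of 4 libraries examined, 5 held a library whose gap to the nearest other, divided by the range of the group, was above Dixon's 95% critical value, which chance gives in about 1 of 20 groups. HTRA1 was low in Control replicate 2, at 577 normalized counts, against 949.5 to 1018 in the other Control libraries. HTRA4 was 0.893 in Control replicate 2 (1 count) with 0 in the others, which passes by construction and leaves 4 to read against that rate. HTRA4 was 11.3 in DZNep replicate 2 (14 counts), with at most 1 count in the others. SHC1 was low in DZNep replicate 4, at 3049 normalized counts, against 3317 to 3328 in the other DZNep libraries. The total of Control replicate 1 was low, at 25043058 counts.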

How the results depend on the processing

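The log2 fold changes of HTRA1, HTRA2 and SHC4 kept their side of the thresholds under all 15 alternatives run for each. SHC1 kept its direction, and with no filter on low counts its log2 fold change was 0.52 with an adjusted p-value of 0.0608 (edgeR). Leaving out 1 library at a time gave ranges of -5.75 to -4.98 for HTRA3, -5.38 to -5.06 for SHC2, -3.49 to -2.95 for HTRA1, -0.12 to 0.10 for HTRA2, 0.44 to 0.56 for SHC1 and 1.34 to 1.59 for SHC4. HTRA3 could not be fitted with at least 10 counts in every library. There 1141 genes were higher in all, and 1 matrix gene. With no fold change threshold, 3656 genes were higher and 4171 lower, with 10 and 11 in the TGF-beta and BMP list, 4 and 8 in the mitochondrial list, 6 and 7 among receptor tyrosine kinases, 8 and 8 among adaptors, 5 matrix genes higher and 8 RAS-MAPK genes higher, by construction of that setting. With limma 5 receptor tyrosine kinases were higher. Leaving out 1 library gave 1 to 4 higher receptor tyrosine kinases, 2 to 6 higher adaptors and 2 to 4 higher RAS-MAPK genes. The cause of these differences was not tested. With the replicate block 2243 genes were higher and 2736 lower, against 2041 and 2589 without it, and in the members and lists it changed no other call than those of KDR, GAB3 and EGR1. Of the 5 genes most like HTRA3, 2 remained with a pseudocount of 5 and 4 with 0.5, and all 5 of those for SHC2 remained with either. Across settings the median log2 fold change of all genes stayed between -0.04 and 0.06.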
